A study of Arabidopsis thaliana with 18 samples.

Results

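The plant defensin genes PDF1.2 (AT5G44420), PDF1.2b (AT2G26020), PDF2.1 (AT2G02120) and PDF2.5 (AT5G63660) differed in opposite directions by class between 16 °C and 23 °C in Arabidopsis thaliana seedlings: the PDF1 genes were higher and the PDF2 genes lower at 23 °C in each of 3 genotypes. The 4 genes were taken by symbol from the probe annotation, where each is named by 1 probe set, out of 13350 genes named there and 22746 probe sets tested. They were chosen by their temperature differences in these same arrays, so every 23 °C against 16 °C value of theirs is a description without a test. Comparisons between genotypes at 1 temperature were not used to pick them and are tested. They use the same arrays, however, so these tests are not independent of the choice.

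The 18 arrays hold whole seedlings of 3 genotypes, wild-type Columbia (WT), elf3-7 and tfl1-1. Seeds of all groups were stratified for 3 days in the cold, and seedlings were grown for 10 days on MS agar under continuous white light at either 16 °C or 23 °C, with 3 biological replicates, lettered A, B and C, in each of the 6 groups. ELF3 belongs to the evening complex of the circadian clock and TFL1 represses flowering in the shoot meristem, and the study asked how they act on flowering under different ambient temperatures. Each mutant is represented by 1 allele, the labels give no number of seedlings per sample, and no treatment other than temperature is stated for any group. The annotation names no probe set as ELF3 or TFL1, so the mutated genes themselves gave no check of the genotypes.

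Plant defensins are small, secreted, cysteine-rich peptides, many of which inhibit the growth of fungi. In Arabidopsis they are sorted by sequence into classes. PDF1.2 of the first class is the standard reporter of the joint jasmonate and ethylene defence branch, in which the transcription factors ERF1 and ORA59 act on its promoter, and PDF1.2b is a close copy of it. Genes of the second class, among them PDF2.1, PDF2.2, PDF2.3 and PDF2.5, are better known for steady expression in healthy organs, and PDF2.5 has been linked to cadmium tolerance.

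The values are log2 expression per probe set after robust multi-array averaging (RMA), and median values per array lay between 5.49 and 5.62. The 24 control probe sets for Bacillus transcripts had array means of 4.81 to 6.67 in the 6 replicate C arrays, while they averaged 3.21 in the 12 arrays of replicates A and B, where they serve as a level of no plant signal and where the brightest single value was 4.64. The excess of 3′ over 5′ signal in the control probe sets for actin and GAPDH, which rises with RNA degradation or incomplete labelling, was 1.11 to 1.63 in A and B and 1.78 to 2.74 in C, with the highest value in tfl1-1 at 23 °C. Replicate C is therefore described as a batch, and values from A and B alone stand beside the pooled ones. The fit over all arrays had no batch term. The probe set of PDF1.2b carries the suffix that Affymetrix gave to sets whose probes also match other transcripts, so it can pick up PDF1.2 and the copy PDF1.2c, and these 2 readings are not independent measurements of separate genes.

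PDF1.2, the jasmonate and ethylene reporter, read 5.91, 5.0 and 4.77 in WT replicates A, B and C at 16 °C and 7.79, 9.57 and 9.69 at 23 °C. In elf3-7 it read 5.99, 6.49 and 5.53 at 16 °C and 10.11, 8.42 and 9.64 at 23 °C. In tfl1-1 the values were 6.55, 5.50 and 6.69 at 16 °C and 7.60, 10.20 and 9.92 at 23 °C. The 9 arrays at 23 °C all lay above the 9 arrays at 16 °C, as they did for 1.27% of all probe sets, and the lowest arrays at 23 °C were replicate A of WT, replicate B of elf3-7 and replicate A of tfl1-1. The 23 °C mean exceeded the 16 °C mean 13.8-fold in WT (log2 difference 3.79 ± 0.67, SE of the fit, n = 3 per group), 10.5-fold in elf3-7 (3.39 ± 0.67) and 7.97-fold in tfl1-1 (2.99 ± 0.67).

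PDF1.2b followed PDF1.2 array by array. Its WT values were 6.23, 5.31 and 4.68 at 16 °C and 8.08, 9.37 and 9.81 at 23 °C. In elf3-7 they were 5.70, 6.35 and 5.75 at 16 °C and 9.56, 7.59 and 9.46 at 23 °C, and in tfl1-1 7.47, 6.18 and 7.40 at 16 °C and 7.94, 10.60 and 10.14 at 23 °C. Again the temperatures did not overlap, but only narrowly, since the lowest array at 23 °C, replicate B of elf3-7, stood at 7.59 and the highest array at 16 °C, replicate A of tfl1-1, at 7.47. The 23 °C mean was 12.8-fold higher in WT (3.68 ± 0.70), 7.65-fold in elf3-7 (2.94 ± 0.70) and 5.84-fold in tfl1-1 (2.55 ± 0.70).

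The PDF2 genes ran the other way. PDF2.5 read 7.10, 7.64 and 7.86 in WT at 16 °C against 3.15, 4.14 and 3.82 at 23 °C. In elf3-7 it read 7.26, 7.57 and 7.80 against 4.81, 6.06 and 4.35, and in tfl1-1 7.12, 7.26 and 7.32 against 3.46, 3.61 and 6.33. The 9 arrays at 23 °C all lay below the 9 at 16 °C, as for 1.35% of all probe sets, and replicate C of tfl1-1 was the highest of them. The 23 °C mean was 14.2-fold lower in WT (log2 difference -3.83 ± 0.60), 5.54-fold lower in elf3-7 (-2.47 ± 0.60) and 6.78-fold lower in tfl1-1 (-2.76 ± 0.60). At 23 °C 6 of the 9 arrays were no brighter than the brightest Bacillus control of replicates A and B, against 0 of 9 at 16 °C, so the size of this difference is uncertain at its lower end.

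PDF2.1 was lower at 23 °C in each genotype, with more overlap. Its WT values were 6.37, 7.80 and 7.45 at 16 °C and 3.96, 4.81 and 5.75 at 23 °C. In elf3-7 they were 7.87, 7.47 and 7.69 against 6.95, 7.02 and 5.06, and in tfl1-1 7.91, 7.26 and 7.00 against 3.34, 5.65 and 6.19. Within each genotype the temperatures did not overlap, but over all genotypes they did, because replicates A and B of elf3-7 at 23 °C stayed above the lowest WT array at 16 °C. The 23 °C mean was 5.16-fold lower in WT (-2.37 ± 0.68), 2.52-fold lower in elf3-7 (-1.33 ± 0.68) and 5.03-fold lower in tfl1-1 (-2.33 ± 0.68). In elf3-7 the 95% interval of the difference, -2.80 to 0.13, reached past 0, and 2 of the 9 arrays at 23 °C lay at or below the brightest control.

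**Figure D1:**
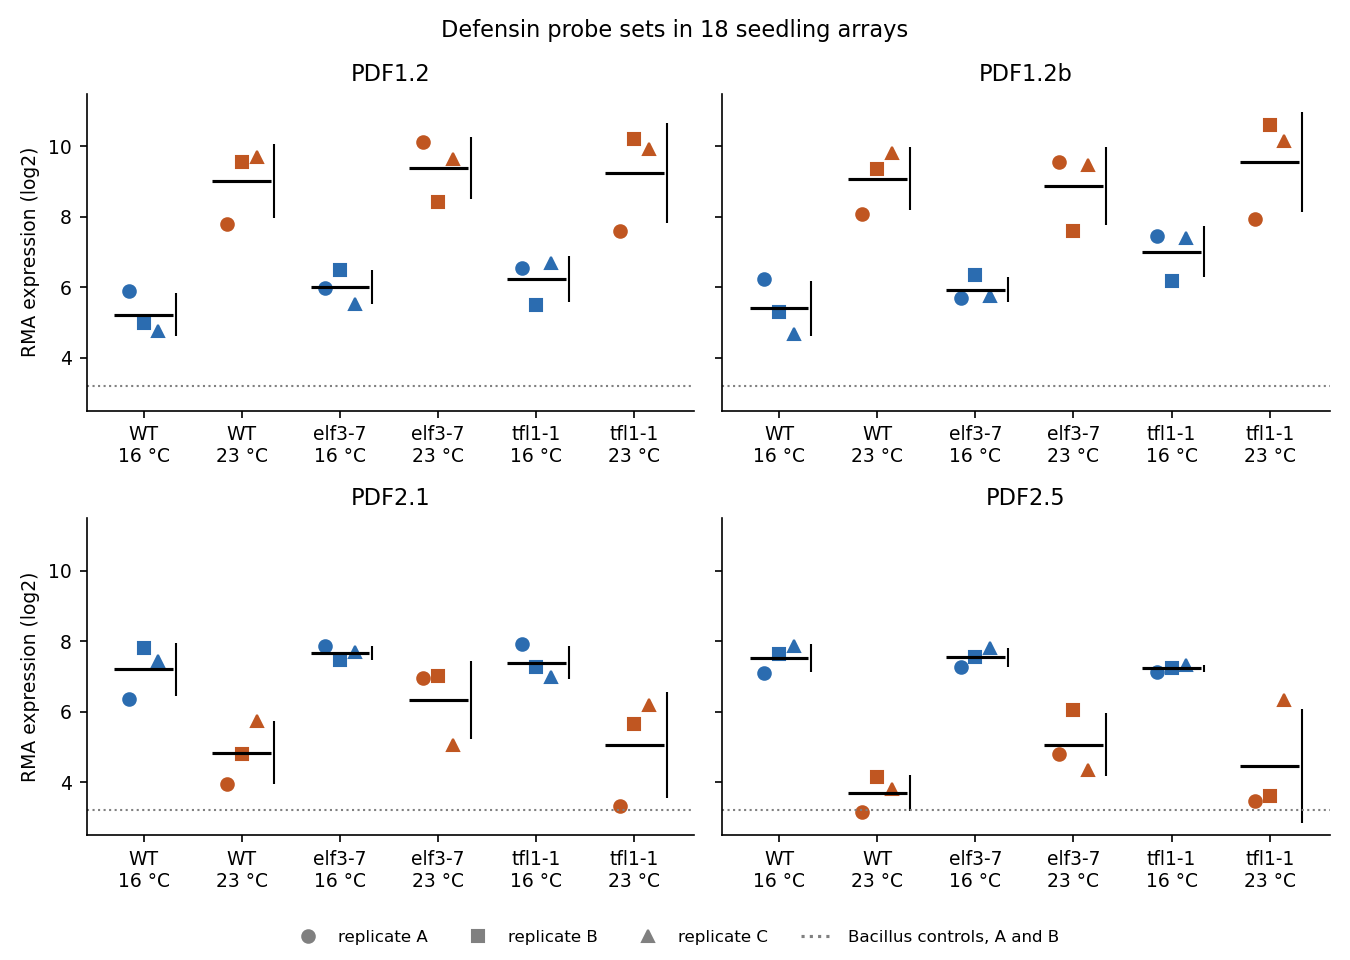
RMA expression on the log2 scale (vertical axis) of the 4 defensin probe sets in each of the 18 arrays by genotype and temperature, with 16 °C in blue, 23 °C in orange, marker shapes for replicates A, B and C, horizontal bars at the mean, vertical bars of ± 1 SD (n = 3) and a dotted line at the mean Bacillus control of replicates A and B (3.21). The PDF1 genes are higher and the PDF2 genes lower at 23 °C, and the arrays of a group spread more at 23 °C than at 16 °C.

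As background, 13.7% of all probe sets had all 3 WT arrays at 23 °C above all 3 at 16 °C and 12.5% had them all below. The shares were 14% and 12.5% in elf3-7 and 15% and 13.4% in tfl1-1. Because the genes were picked for this pattern, nothing is read from their standing against these shares. The 3 genotypes share no array in these comparisons.

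The spread between arrays of a group was wider at 23 °C for the members of both classes. The pooled SD within groups (6 degrees of freedom at each temperature) was 0.58 at 16 °C and 1.14 at 23 °C for PDF1.2, and 0.65 and 1.16 for PDF1.2b. It was 0.52 and 1.20 for PDF2.1 and 0.28 and 1.1 for PDF2.5. The PDF1 genes varied most where their signal was bright, whereas the PDF2 genes varied most where it was dim.

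Pairs of arrays with the same genotype and letter gave 9 temperature differences per gene. They were above 0 in 9 of 9 pairs for PDF1.2 (1.06 to 4.92) and PDF1.2b (0.47 to 5.13), and in 0 of 9 pairs for PDF2.1 (-4.58 to -0.45) and PDF2.5 (-4.04 to -0.99). For PDF1.2 the smallest differences were those of replicate A in WT (1.89), replicate B in elf3-7 (1.93) and replicate A in tfl1-1 (1.06). For PDF2.5 the WT differences were closest together (-3.95, -3.50 and -4.04), while tfl1-1 held 2 large differences (-3.66 and -3.64) and a small one in replicate C (-0.99).

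Within replicates A and B alone the differences of PDF1.2 were 3.23 in WT, 3.03 in elf3-7 and 2.88 in tfl1-1, and in replicate C they were 4.92, 4.11 and 3.22. Those of PDF1.2b were 2.95, 2.54 and 2.45 in A and B and 5.13, 3.72 and 2.74 in C. The mean of A and B and the single pairs of C thus placed WT first and tfl1-1 last for the PDF1 genes. Neither A nor B alone gave this order. For PDF1.2, A differed by 1.89 in WT, 4.12 in elf3-7 and 1.06 in tfl1-1, and B by 4.56, 1.93 and 4.71. The margins in A and B were smaller than the SE of that fit (0.88 for PDF1.2 and 0.90 for PDF1.2b). The pairs of replicate C have no SE. For PDF2.1 the differences were -2.70 in WT, -0.69 in elf3-7 and -3.1 in tfl1-1 in A and B, but -1.70, -2.63 and -0.80 in C. For PDF2.5 they were -3.72, -1.98 and -3.65 in A and B and -4.04, -3.45 and -0.99 in C. So elf3-7 had the smallest PDF2 difference in A and B and tfl1-1 the smallest in C, where the tfl1-1 array at 23 °C also had the highest 3′ excess in the controls (2.74). The part of RNA quality in this was not tested.

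**Figure D2:**
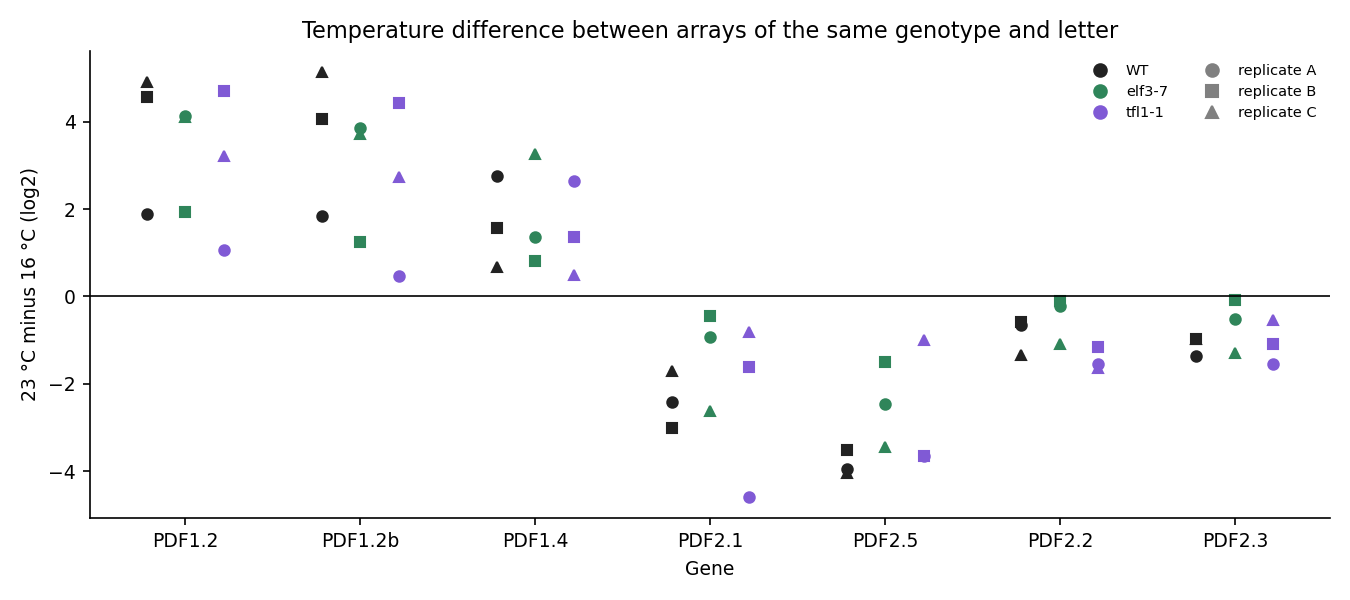
Difference in RMA expression between the 23 °C and the 16 °C array of the same genotype and letter (vertical axis, log2) for 7 defensin genes, coloured by genotype with marker shapes for replicates A, B and C. The pairs lie above 0 for PDF1.2, PDF1.2b and PDF1.4 and below 0 for PDF2.1, PDF2.5, PDF2.2 and PDF2.3.

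The temperature difference in a mutant was set against that in WT as a description. For the PDF1 genes the mutant differences were smaller, by a change of -0.40 (95% interval -2.42 to 1.62) for PDF1.2 and -0.74 (-2.85 to 1.36) for PDF1.2b in elf3-7, and of -0.79 (-2.82 to 1.23) and -1.13 (-3.24 to 0.97) in tfl1-1. For the PDF2 genes, whose WT difference is negative, the change in elf3-7 was 1.03 (-1.03 to 3.1) for PDF2.1 and 1.36 (-0.44 to 3.15) for PDF2.5. In tfl1-1 it was 0.04 (-2.03 to 2.1) and 1.07 (-0.73 to 2.86). The PDF1.2 changes turned sign without replicate B of elf3-7 at 23 °C (0.085) and without replicate A of tfl1-1 at 23 °C (0.025), and the PDF2.1 change in tfl1-1 turned sign in 8 of 21 alternatives (-0.53 to 0.90). All of these intervals hold 0 and are wide enough to hold changes of more than 1 log2 unit in one direction at least. In A and B alone the tfl1-1 change of PDF2.5 was 0.07, so the pooled value rests on replicate C.

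The order of the 6 groups differed between the classes. For PDF1.2 the mean was highest in elf3-7 at 23 °C (9.39 ± 0.87, SD, n = 3), then tfl1-1 (9.24 ± 1.42) and WT (9.01 ± 1.06) at 23 °C, and then tfl1-1 (6.25 ± 0.65), elf3-7 (6.0 ± 0.48) and WT (5.23 ± 0.60) at 16 °C. For PDF1.2b the order was tfl1-1 (9.56 ± 1.42), WT (9.09 ± 0.90) and elf3-7 (8.87 ± 1.11) at 23 °C, followed by tfl1-1 (7.01 ± 0.72), elf3-7 (5.93 ± 0.36) and WT (5.41 ± 0.78) at 16 °C. Neighbours in these orders had overlapping arrays, apart from the step between the lowest group at 23 °C and the highest at 16 °C. For PDF2.1 the order ran from elf3-7 (7.68 ± 0.20), tfl1-1 (7.39 ± 0.47) and WT (7.21 ± 0.75) at 16 °C to elf3-7 (6.34 ± 1.11), tfl1-1 (5.06 ± 1.52) and WT (4.84 ± 0.89) at 23 °C, with every neighbour overlapping. For PDF2.5 it ran from elf3-7 (7.54 ± 0.27), WT (7.53 ± 0.39) and tfl1-1 (7.23 ± 0.10) at 16 °C to elf3-7 (5.07 ± 0.89), tfl1-1 (4.47 ± 1.61) and WT (3.70 ± 0.50) at 23 °C, and only the step between the temperatures was free of overlap. In each of the 4 genes WT held the lowest mean of all 6 groups, at 16 °C for the PDF1 genes and at 23 °C for the PDF2 genes.

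The genotype comparisons ask whether loss of ELF3 or TFL1 shifts defensin expression at 1 temperature. In the fit over all arrays none did so detectably. In limma, with Benjamini-Hochberg adjustment over all 22746 probe sets and a call at an adjusted p under 0.05, 0 of 24 differences (4 genes in 6 comparisons) were called, and 3 of 24 had an unadjusted p under 0.05. Among all probe sets, 0.268% were called for elf3-7 minus WT at 16 °C, 0.0308% for elf3-7 minus WT at 23 °C, 0% for tfl1-1 minus WT at 16 °C and 0.0352% for tfl1-1 minus WT at 23 °C. Between the mutants, 2.55% were called at 16 °C and 0.224% at 23 °C. With SEs of 0.60 to 0.70, the estimates ran from -1.08 to 1.61 and their 95% intervals from -2.57 to 3.1, so sizeable differences in either direction remain possible.

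The 3 differences with the smallest p-values split by class and temperature. PDF1.2b was higher in tfl1-1 than in WT at 16 °C by 1.61 ± 0.70 (95% interval 0.12 to 3.1, limma unadjusted p = 0.0360, adjusted p = 0.634), and the arrays overlapped at 6.18 in tfl1-1 against 6.23 in WT. PDF1.2 differed there by 1.02 ± 0.67 (-0.41 to 2.45, limma adjusted p = 0.749). The other two were PDF2 genes at 23 °C in elf3-7.

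PDF2.5 was higher in elf3-7 than in WT at 23 °C by 1.37 ± 0.60 (0.10 to 2.64, limma unadjusted p = 0.0363, adjusted p = 0.961), with no overlap between the 3 and 3 arrays, a pattern that 4.3% of all probe sets showed in that direction. PDF2.1 was higher by 1.5 ± 0.68 (0.04 to 2.96, limma unadjusted p = 0.0446, adjusted p = 0.961), with overlapping arrays. In replicates A and B alone the differences were 1.79 for PDF2.5 (limma adjusted p = 0.137) and 2.6 for PDF2.1 (limma adjusted p = 0.162). In replicate C they were 0.53 and -0.69, so the PDF2.1 difference did not hold its sign in both batches. At 16 °C the same contrast gave 0.01 ± 0.60 for PDF2.5 (-1.26 to 1.28) and 0.47 ± 0.68 for PDF2.1 (-0.99 to 1.93).

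The PDF1 genes in elf3-7 differed from WT by 0.78 (PDF1.2) and 0.53 (PDF1.2b) at 16 °C and by 0.38 and -0.22 at 23 °C, all with overlapping arrays. In tfl1-1 at 23 °C the differences from WT were 0.23 for PDF1.2, 0.47 for PDF1.2b, 0.22 for PDF2.1 and 0.76 for PDF2.5. The last of these was -0.11 in A and B alone, because the difference in replicate C was 2.51. PDF2.1 and PDF2.5 in tfl1-1 at 16 °C differed from WT by 0.18 and -0.30.

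Between the mutants at 23 °C, the PDF2.1 mean was higher in elf3-7 than in tfl1-1 by 1.28 ± 0.68 (-0.18 to 2.74, limma adjusted p = 0.362, and 0.42 without replicate A of tfl1-1) and PDF2.5 by 0.61 ± 0.60 (-0.67 to 1.88, limma adjusted p = 0.651). In A and B alone both were called, at 2.49 (limma adjusted p = 0.0325) and 1.90 (limma adjusted p = 0.0130), alongside 18% of all probe sets, and in replicate C the differences were -1.13 and -1.98. Without replicate C of tfl1-1 at 23 °C alone, PDF2.5 was called at 1.54 (limma adjusted p = 0.0211), as were 13% of all probe sets. At 16 °C the mutants differed by 0.29 for PDF2.1, 0.31 for PDF2.5, -0.24 for PDF1.2 and -1.08 for PDF1.2b, and at 23 °C by 0.15 for PDF1.2 and -0.69 for PDF1.2b.

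**Figure D3:**
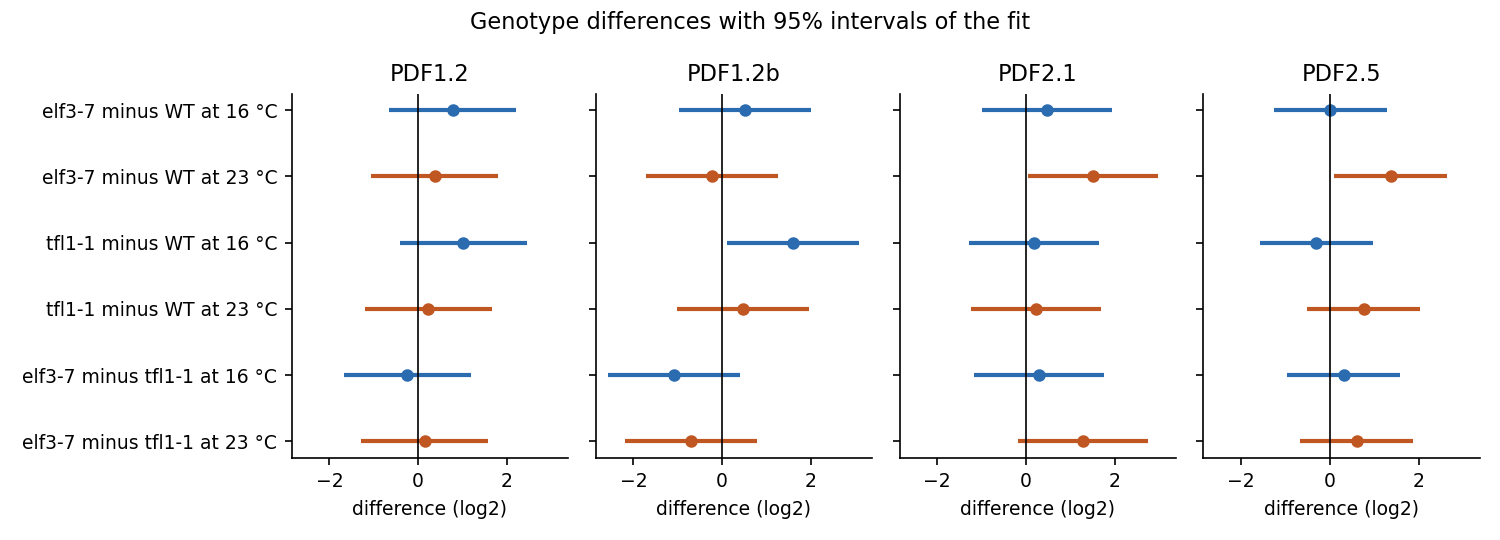
Differences between genotypes at 1 temperature (horizontal axis, log2 RMA, in the order of subtraction written at the left) for the 4 defensin genes, with points for the estimate and lines for the 95% interval of the limma fit, blue at 16 °C and orange at 23 °C. Of the 24 intervals, 3 exclude 0 before adjustment and 0 differences are called after it.

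Deviations of the arrays from their own group means were compared between genes, as a description over 18 arrays with 12 residual degrees of freedom. These points share an array, and with it the RNA sample, its quality and the RMA scaling. PDF1.2 and PDF1.2b deviated together (r = 0.97, and 0.94 over the 9 arrays at 16 °C and 0.98 over the 9 at 23 °C). PDF2.1 and PDF2.5, on chromosomes 2 and 5 and each with a probe set of its own, had r = 0.64 (0.41 at 16 °C and 0.67 at 23 °C). Across the classes the values were lower, at 0.44 for PDF1.2 with PDF2.1, 0.13 for PDF1.2 with PDF2.5, 0.34 for PDF1.2b with PDF2.1 and 0.01 for PDF1.2b with PDF2.5. Those pooled values joined opposite signs. Over the 9 arrays at 16 °C PDF1.2 had r = -0.46 with PDF2.1 and -0.60 with PDF2.5, and over the 9 at 23 °C 0.64 and 0.23. PDF1.2b had -0.43 and -0.57 at 16 °C and 0.52 and 0.09 at 23 °C. The values at each temperature rest on 9 arrays with 6 degrees of freedom and were not tested, and the 2 PDF1 readings are not independent. Arrays at 16 °C did not all go one way. In WT replicate A PDF1.2 deviated by 0.68 and PDF2.1 by -0.84, while in tfl1-1 replicate A they deviated by 0.30 and 0.52. No tendency is therefore read from the signs.

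Of 11 further defensin genes listed, 8 are measured by a probe set named here. PDF1.4 (AT1G19610), of the first class, read 4.25, 3.92 and 3.89 in WT at 16 °C and 7.01, 5.49 and 4.55 at 23 °C. In elf3-7 it read 4.16, 3.70 and 3.54 against 5.51, 4.51 and 6.81, and in tfl1-1 3.98, 4.32 and 3.91 against 6.63, 5.69 and 4.41. All 9 arrays at 23 °C were above all 9 at 16 °C, as for 1.27% of all probe sets. None of the 9 at 16 °C was brighter than the brightest control. At 23 °C 3 of the 9 were no brighter than it either, so the size of the difference is uncertain. The differences of 1.66 ± 0.63 in WT, 1.81 in elf3-7 and 1.5 in tfl1-1 did not pass the test (limma adjusted p = 0.128, 0.106 and 0.148), though in A and B alone those of WT (2.16, limma adjusted p = 0.0247) and tfl1-1 (2.01, limma adjusted p = 0.0188) did, where 11.4% and 21.8% of all probe sets were called. It was also called in elf3-7 without replicate B at 23 °C (2.36, limma adjusted p = 0.0428, 7.09% of all called) and in tfl1-1 without replicate C at 23 °C (2.09, limma adjusted p = 0.0313, 19.1%). With array weights it was called in each genotype, as were 15.6% of all probe sets in WT, 19.4% in elf3-7 and 31.2% in tfl1-1.

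PDF1.4 showed the same direction as PDF1.2 with temperature but not the same ordering of arrays. Its r of deviations was -0.39 with PDF1.2 and -0.26 with PDF1.2b, against -0.83 with PDF2.1 and -0.80 with PDF2.5. At 16 °C these were 0.03, -0.09, -0.27 and -0.75, and at 23 °C -0.45, -0.30, -0.90 and -0.80. The 16 °C values use PDF1.4 signals no brighter than the brightest control. At 23 °C that holds for PDF1.4 in 3 of 9 arrays and for PDF2.5 in 6 of 9. At 23 °C the WT and tfl1-1 arrays highest in PDF1.4 were those of replicate A, which were the lowest in PDF1.2. In elf3-7 at 23 °C replicate B was the lowest in both.

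PDF2.3 and PDF2.2 sit beside PDF2.1 on chromosome 2, PDF2.3 as the next annotated gene and PDF2.2 as the third gene on the other side. PDF2.3 (AT2G02130, annotated as LCR68) fell at 23 °C in WT (-1.11 ± 0.27, limma adjusted p = 0.0278) and tfl1-1 (-1.05 ± 0.27, limma adjusted p = 0.0274), and differed by -0.64 in elf3-7 (limma adjusted p = 0.182). The WT call was lost when any 1 of its 16 °C arrays or replicate A at 23 °C was left out, and the tfl1-1 call when any 1 array other than replicate C at 23 °C was, at limma adjusted p-values up to 0.118 and 0.126. In elf3-7 it was called without replicate B at 23 °C (-0.95, limma adjusted p = 0.0398). PDF2.2 (AT2G02100, annotated as LCR69) fell in tfl1-1 (-1.45 ± 0.32, limma adjusted p = 0.0146), a call lost without replicate A or B at 16 °C (limma adjusted p = 0.0706 and 0.0547). It differed by -0.86 in WT (limma adjusted p = 0.124, and 0.0150 with a replicate block, which called 13.9% of all probe sets) and by -0.48 in elf3-7 (limma adjusted p = 0.423). These differences are smaller than those of PDF2.1, and the genes stood far above control level throughout, PDF2.3 at 8.98 or more and PDF2.2 at 10.2 or more.

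The deviations of PDF2.1 had a pooled r of 0.77 with PDF2.3, 0.64 with PDF2.5 and 0.13 with PDF2.2. Over the 9 arrays at 16 °C these values were 0.60, 0.41 and 0.64. Over the 9 at 23 °C they were 0.80, 0.67 and 0.03. Whether these r values differ from each other was not tested. The other 5 measured defensins, PDF1.1, PDF2.4, PDF2.6, LCR80 (AT5G38330) and LCR59 (AT4G30070), stayed between 2.79 and 3.73 in all 18 arrays, at the level of the Bacillus controls, so no temperature difference was detectable for them. Over the 8 genes, 0 were called higher and 1 lower in WT, 0 and 0 in elf3-7, and 0 and 2 in tfl1-1. Of all probe sets, 6.81%, 4.87% and 9.16% were called in either direction in the same fit. With the replicate block these shares were 13.9% in WT and 12.8% in elf3-7, and PDF2.2 was called in WT as well. An unadjusted limma p under 0.05 was found for 3, 2 and 4 of the 8. The share of all probe sets at that unadjusted threshold is not given. Nothing is therefore read from these counts, from the 3 of 24 genotype differences or from the counts of the other lists. The median difference of the 8 was 0.05 in WT, 0.03 in elf3-7 and 0.08 in tfl1-1, beside medians of 0.05, 0.03 and 0.04 over all probe sets. The copies PDF1.2c and PDF1.3, next to PDF1.2 and PDF1.2b in the annotation, were not analysed here.

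**Figure D4:**
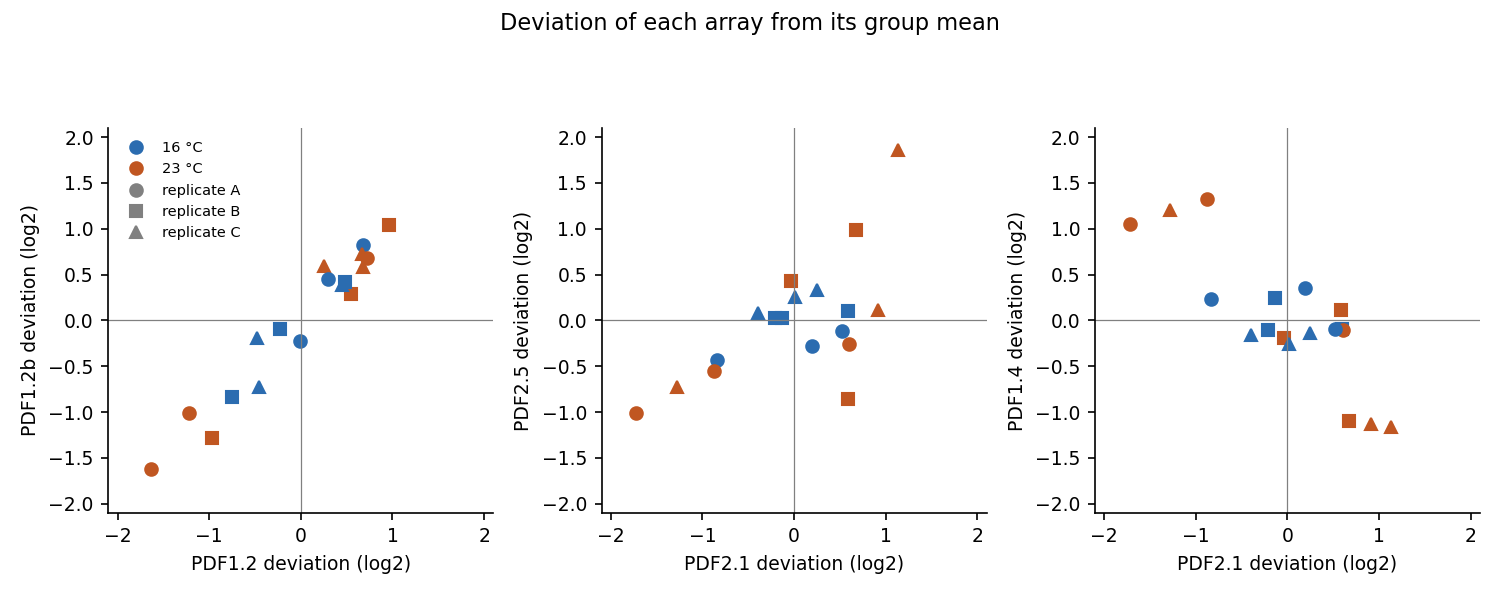
Deviation of each of the 18 arrays from its group mean (log2 RMA, both axes) for PDF1.2b against PDF1.2, PDF2.5 against PDF2.1 and PDF1.4 against PDF2.1, in blue at 16 °C and orange at 23 °C with marker shapes for replicates A, B and C. The first pair follows a rising line (r = 0.97), the second rises more loosely (0.64) and the third falls (-0.83), with most of the spread at 23 °C.

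Genes of the pathways that act on PDF1.2 were looked up from lists of jasmonate synthesis, jasmonate signalling, ethylene, and jasmonate and ethylene defence outputs, with 13, 16, 16 and 6 genes. The annotation names a probe set for 6 of these: JMT, which makes methyl jasmonate, the jasmonate transcription factors MYC3 and MYC4, the ethylene transcription factor EIN3, and the thionins THI2.1 and THI2.2, small antimicrobial peptides. In WT and elf3-7 0 of 6 were called at 23 °C against 16 °C, where 6.81% and 4.87% of all probe sets were. An unadjusted limma p under 0.05 was found for 0 of 6 in both. Their median differences were 0.12 and 0.27, beside 0.05 and 0.03 over all probe sets. In WT, EIN3 differed by 0.49 ± 0.46 (95% interval -0.49 to 1.46) and THI2.1 by 0.02 ± 0.35 (-0.73 to 0.77). The WT pairs of same-lettered arrays differed by 0.39, 0.73 and 0.35 for EIN3. Over all genotypes, 8 of 9 pairs were higher at 23 °C for EIN3 (-0.67 to 0.90) and THI2.1 (-0.03 to 1.97). The THI2.1 count includes differences of 0.0003 in WT replicate B and 0.005 in tfl1-1 replicate C. The count was 7 for JMT, 6 for MYC4 and 5 for MYC3 and THI2.2. The share of all probe sets with such counts is not given, and nothing is read from them. In A and B alone EIN3 differed by 0.56 in WT, 0.44 in elf3-7 and 0.65 in tfl1-1 (SE 0.15 each). In replicate C it differed by 0.35, 0.90 and -0.67.

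In tfl1-1 1 of the 6 was called, where 9.16% of all probe sets were, with a median of 0.15 beside 0.04. An unadjusted limma p under 0.05 was found for 2 of the 6, THI2.1 and JMT. JMT differed by 0.85 ± 0.36 (limma unadjusted p = 0.0317, adjusted p = 0.153). It read 3.54, 2.89 and 3.43 in replicates A, B and C at 16 °C and 3.50, 3.62 and 5.28 at 23 °C. THI2.1 rose by 1.27 ± 0.35 (limma adjusted p = 0.0360), from a 16 °C level at the controls (3.32 ± 0.09, SD, n = 3) to 5.19 and 5.25 in 2 arrays at 23 °C and 3.33 in the third, replicate C. That call was lost when only the arrays of tfl1-1 were fitted (limma adjusted p = 0.212) and in the fits that left out any 1 tfl1-1 array other than replicate C at 23 °C, without which the difference was 1.90. In WT, where PDF1.2 differed most, THI2.1 read 3.28 to 3.68 in all arrays at 23 °C. Of the salicylic acid defence list, whose pathway often opposes jasmonate, 2 of 11 genes are named in the annotation (SAG101 and GRX480), and 0 were called in any temperature comparison, with an unadjusted limma p under 0.05 for 0, 0 and 2 of them in WT, elf3-7 and tfl1-1.

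Whole seedlings mix organs, and in such samples fewer cells of a type and less RNA per cell cannot be told apart. Of 14 root markers, 3 are named in the annotation: EXPA7 and EXPA18, expansins of root hairs, and PYK10, a root beta-glucosidase. In no genotype did any pass the test between temperatures, with an unadjusted limma p under 0.05 for 2 of 3 in WT and 1 of 3 in each mutant. Their mean level nevertheless ran from 6.85 to 8.03 in WT arrays at 16 °C and from 6.16 to 6.41 at 23 °C. It was 6.72 to 8.54 and 6.38 to 7.48 in elf3-7, and 7.10 to 7.62 and 6.11 to 6.55 in tfl1-1. The median difference of the 3 was -0.98 in WT, -0.82 in elf3-7 and -1.09 in tfl1-1. Of the 9 pairs of same-lettered arrays 0 were higher at 23 °C for EXPA7 and EXPA18 and 2 for PYK10. The share of all probe sets with such pair counts is not given. At 23 °C EXPA7 and EXPA18 read above the brightest Bacillus control of replicates A and B (4.64) only in replicate B of elf3-7 (5.10 and 5.26). The size of their falls is thus uncertain at the lower end. The part of the root markers in the PDF2 differences was not tested.

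The deviations of PDF2.5 had r = 0.68 with PYK10 over all arrays, but -0.68 at 16 °C and 0.90 at 23 °C. At 23 °C PDF2.5 was no brighter than the brightest control in 6 of 9 arrays. In tfl1-1 replicate C at 23 °C PDF2.5 deviated by 1.86 and PYK10 by 0.67. The deviations of PDF2.1 had r = 0.54 with PYK10 (-0.21 at 16 °C and 0.72 at 23 °C). For EXPA18 the values were 0.61 with PDF2.5 and 0.55 with PDF2.1 at 23 °C, and -0.64 and -0.38 at 16 °C. Those at 23 °C use EXPA18 signals no brighter than the brightest control in every array except replicate B of elf3-7. PDF1.2 had 0.63 with EXPA18 at 16 °C and -0.13 at 23 °C. The 2 green tissue markers named of 7, LHCB4.2 of the light-harvesting antenna and RCA, which activates Rubisco, had means between 12.8 and 13.2 in every array, and their temperature differences were not called. Of 6 seed storage markers 0 are named here.

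The genes whose pattern over all 18 arrays was closest to each defensin were taken by Pearson correlation from 1576 probe sets with a gene symbol, leaving out the 4 defensins themselves, of which PDF1.2 and PDF1.2b had r = 0.97 and PDF2.1 and PDF2.5 0.88. This measure mixes the temperature difference with the variation between arrays, and it was also computed at each temperature over 9 arrays. Closest to PDF1.2 among them were SGT1A, a cochaperone of immune receptors (r = 0.92), 2A6, a dioxygenase-like gene (0.89), the glutamate receptor-like channel GLR2.7 (0.85), the cation exchanger CHX20 (0.85) and the MADS-box gene AGL24, a promoter of flowering (0.82). Within temperatures these fell to between -0.07 and 0.60, so the likeness comes largely from the temperature step. Most opposed was TBL35, of the family that acetylates cell wall polymers (-0.94, and -0.85 at 16 °C and -0.55 at 23 °C), followed by the cold-induced dehydrin LTI30 (-0.83, but 0.52 at 16 °C and -0.02 at 23 °C).

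PDF1.2b had 2A6 (0.90), SGT1A (0.90), CHX20 (0.87), the ubiquitin ligase RING1 (0.86) and the cytochrome P450 CYP71B28 (0.85) as its nearest genes, with TBL35 (-0.93) and the peroxidase Prx37 (-0.84) most opposed. The 2A6, SGT1A and CHX20 genes and the most opposed TBL35 were thus shared with PDF1.2.

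For PDF2.1 the nearest was its neighbour PDF2.3 (0.93, and 0.60 at 16 °C and 0.86 at 23 °C). Next came ACLA-2, a subunit of ATP-citrate lyase that makes cytosolic acetyl-CoA (0.92), GH9B13, a glycosyl hydrolase of the cellulase family (0.91), TBL39 (0.91) and HTB11, a histone H2B (0.91). A late embryogenesis abundant gene, LEA (AT2G21490), was most opposed (-0.95, and -0.94 at 23 °C), followed by EXGT-A3, a xyloglucan-modifying enzyme (-0.88).

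For PDF2.5 the values were higher still, with TBL39, the beta-glucosidase BGLU15, the acyl-ACP thioesterase FaTA and ACLA-2 all at 0.97 and the subtilase SBT4.12 at 0.96. They also followed PDF2.5 within 23 °C, at 0.87 for TBL39, 0.91 for BGLU15, 0.98 for FaTA, 0.87 for ACLA-2 and 0.88 for SBT4.12. There 6 of the 9 PDF2.5 signals were no brighter than the brightest control. Within 16 °C the values ran from -0.18 (SBT4.12) to 0.88 (TBL39). Most opposed were nad1, a mitochondrial subunit of respiratory complex I (-0.92), and DIM1A, an rRNA methyltransferase (-0.90), although within 16 °C these stood at 0.72 and 0.46. TBL39 and ACLA-2 were among the nearest 5 of both PDF2 genes.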

How the data were processed

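Whole-seedling RNA was hybridised to Affymetrix arrays, 3 for each of 6 groups taken from the labels. The authors deposited log2 expression values for each probe set. RMA is the only tool that the submitters' processing notes name, and its version and the genome build were not given in the sources used here. No further normalization was applied, and the number of arrays limits the precision. Tests ran on 22746 of 22810 probe sets, without the 64 controls. Names came from the platform annotation, updated through RefSeq gene identifiers: 13513 probe sets name 1 gene (1580 with a symbol), 503 name several, and 40.6% name several or none. The defensins listed as PDF3 genes are named by their annotated symbols LCR80 and LCR59.

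A model of 6 group means over all 18 arrays was fitted in limma 3.58.1 (R 4.3.3) with empirical Bayes moderation, two-sided, with Benjamini-Hochberg adjustment over all probe sets within a comparison and calls at an adjusted p under 0.05. The code was tested on simulated data. Tables were made in Python 3.11.15 with pandas 2.3.3 and numpy 2.4.6, and plots with matplotlib 3.10.9.

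The members and gene lists were chosen with earlier results of these data known. The text names the members, every measured defensin of the list, called members of the lists or up to 2 as values, and the 5 most and 2 least correlated genes with a symbol. Other genes of the pathway and marker lists are named to say which were measured, and the panel of PDF1.4 was chosen after its values were seen.

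The labels state 3 biological replicates and separate RNA preparations, but not that a letter marks a shared day. Over all probe sets, the deviations from group means of 2 arrays with 1 letter correlated above 0.1 in every pair for the temperature comparisons in WT (0.30 to 0.55) and elf3-7 (0.34 to 0.62), for both mutants against WT at 23 °C and for elf3-7 against tfl1-1 at 16 °C. In these comparisons, and not in the others, letters can be read as pairs. The main fit used no pairing and no batch term, and the blocks entered only as alternatives. Alternatives were the replicate block, replicate C as a batch, A and B alone, array weights, 2 further normalizations, a filter on probe sets with a mean under 5, a variance trend, fits of the compared groups alone, and leaving out each array.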

Additional observations from a re-analysis of the deposited data

How the results depend on the processing

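The temperature differences of the 4 defensins kept their sign under every alternative run, as did the count of 0 called genotype differences, except for elf3-7 minus tfl1-1 at 23 °C. There 2 members were called in replicates A and B alone (PDF2.1 2.49, limma adjusted p = 0.0325, and PDF2.5 1.90, 0.0130) and 2 with array weights (PDF2.1 1.79, 0.0425, and PDF2.5 1.37, 0.0259), when 18% and 18.3% of all probe sets were called, and between 0 and 1 when 1 array was left out, the 1 being PDF2.5 without replicate C of tfl1-1 at 23 °C. With the replicate block the PDF2.5 difference between elf3-7 and WT at 23 °C stayed at 1.37 (limma adjusted p = 0.571), and the block changed no other call on a member. In A and B alone the change in the temperature difference in elf3-7 was 2.01 for PDF2.1, the temperature difference of PDF2.5 in tfl1-1 was -3.65, and its change against WT was 0.074 (0.26 with array weights). Leaving out 1 array gave -3.69 to -2.26 and 0.14 to 1.57 for the last values named. Some small genotype differences turned sign: elf3-7 minus tfl1-1 at 16 °C for PDF1.2 (0.22 in A and B), elf3-7 minus WT at 16 °C for PDF2.5 (-0.25 with array weights) and tfl1-1 minus WT at 23 °C for PDF2.5 (-0.11 in A and B, -0.15 with array weights). Leaving out 1 array gave ranges that cross 0 for PDF1.2 in elf3-7 minus WT (-0.23 to 0.86), tfl1-1 minus WT (-0.38 to 1.04) and elf3-7 minus tfl1-1 (-0.67 to 0.64) at 23 °C, and for PDF1.2b in elf3-7 minus WT (-0.72 to 0.42) and tfl1-1 minus WT (-0.047 to 1.28) at 23 °C. The same held for tfl1-1 minus WT for PDF2.1 at 16 °C (-0.24 to 0.48) and 23 °C (-0.35 to 1.08), and for PDF2.5 in elf3-7 minus WT at 16 °C (-0.21 to 0.18) and tfl1-1 minus WT at 23 °C (-0.17 to 1.27). For elf3-7 minus tfl1-1 at 23 °C, PDF2.5 ranged from 0.10 to 1.54 and PDF2.1 from 0.42 to 1.92. The cause of these changes was not tested. Over all probe sets, the calls between temperatures numbered 1549 in WT (964 to 3546 under the alternatives, 351 to 1405 without 1 array), 1107 in elf3-7 (599 to 4419, 209 to 1612) and 2084 in tfl1-1 (791 to 7100, 493 to 4344). The filter on dim probe sets removed PDF1.4, THI2.1, JMT, SAG101, GRX480, EXPA7 and EXPA18. It also removed the 5 defensins that stayed at control level. Signals near the control level limit the PDF2 values at 23 °C.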
